A study of Mus musculus with 16 samples.

Results

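VEGF-R2 positive cells of day 2.5 were compared with the VEGF-R2 negative cells sorted from the same stage of differentiation. The 4 arrays of this comparison, 2 of positive and 2 of negative cells, were found by their sample titles and descriptions among the 16 arrays of sorted mouse embryonic stem cell derivatives. CCE cells, a mouse embryonic stem cell line kept on irradiated embryonic fibroblasts with leukemia inhibitory factor (LIF), were separated from the feeder cells and grown without LIF as embryoid bodies, then dissociated, fixed in ethanol and acetic acid, stained and sorted by flow cytometry. Both populations share this single line, the culture and the fixation, and the duplicates came from separately conducted experiments. Total RNA was labelled and hybridized to Affymetrix mouse expression arrays, on which each probe set reads one transcript or transcript family, and its deposited signal was computed by MAS5, the maker's summary of a probe set, and not logged. The other 12 arrays hold CD41 positive and negative cells of day 3.5 and CD144 positive and negative cells of days 3.5 and 6.5, 2 arrays each.

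VEGF-R2, encoded by Kdr, is a receptor tyrosine kinase for vascular endothelial growth factor. In the mouse embryo it marks mesoderm that leaves the primitive streak, and cells that give rise to both blood and endothelium, called hemangioblasts, carry it. The same receptor is also present on precursors of heart and smooth muscle, so a sort on VEGF-R2 at this stage can gather several kinds of early mesoderm.

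The gene of the sorting marker was the first check of the labels. Kdr had signals of 5475 and 6297 in VEGF-R2 positive cells, against 2088 and 2077 in VEGF-R2 negative cells. This gave a log2 fold change of 1.49 (SE 0.27, adjusted p = 0.000554), where fold changes are positive over negative on the scale log2(signal + 6.03) and p-values come from limma with Benjamini-Hochberg adjustment over all 45037 probe sets tested. All 4 values exceeded 85.8, the median over all arrays and probe sets. In sorted pools such as these, fewer cells of a type and less RNA per cell cannot be told apart.

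The arrays also differed in their control probe sets and in their brightest signals. The spiked hybridization control transcripts had a geometric mean of 6481 and 7937 on the VEGF-R2 positive arrays and of 2134 and 2298 on the VEGF-R2 negative arrays, and over all sorts the 8 positive arrays lay between 6481 and 11175 and the 8 negative arrays between 2134 and 3022. The probe set for the middle of 18S ribosomal RNA gave 103 and 168 in positive cells, against 735 and 1171 in negative cells. The beta-actin 3' over 5' ratio was 1.80 and 2.06 in positive cells and 1.37 and 1.36 in negative cells. The brightest probe set of each array had 69556 and 86343 in positive cells, against 30720 and 31649 in negative cells, while the array medians were 80.7 and 81.4 against 81.5 and 79.0 in the same populations. Duplicates correlated with a Spearman coefficient of 0.876 for the positive and 0.955 for the negative arrays. The array medians overlapped between the populations. The hybridization and 18S controls and the brightest signal separated positive from negative arrays, and their part in the gene results was not tested.

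**Figure D1:**
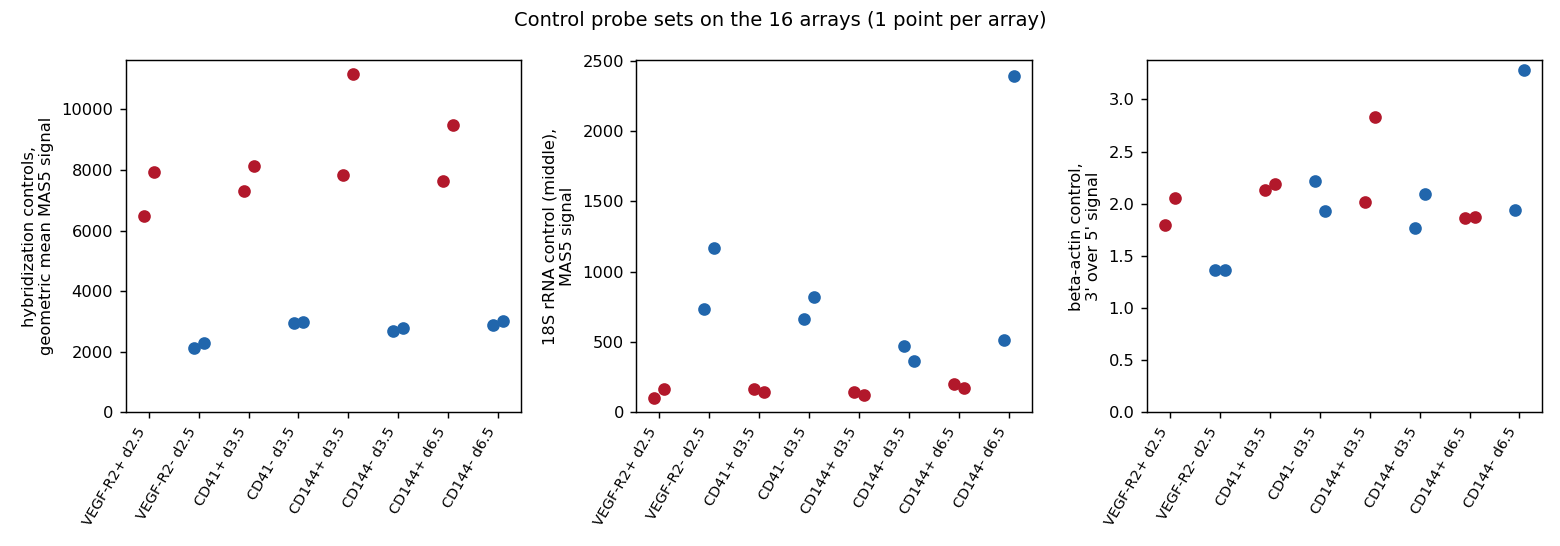
Signals of control probe sets on the 16 arrays, with one point per array, positive cells in red and negative cells in blue, in the order of the sorts. The hybridization controls (left, geometric mean MAS5 signal) lay between 6481 and 11175 on the positive arrays and between 2134 and 3022 on the negative arrays, the 18S control (middle) lay between 103 and 200 on the positive arrays and between 365 and 2392 on the negative arrays, and the beta-actin 3' over 5' ratio (right) between 1.80 and 2.83 and between 1.36 and 3.28.

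Of the 45037 probe sets, 11217 (24.9%) differed between VEGF-R2 positive and negative cells at an adjusted p under 0.05, with 5007 higher (11.1%) and 6210 lower (13.8%). The probe sets called higher had a median signal of 965 in positive and 447 in negative cells, with a median log2 fold change of 1.10. Those called lower had a median of 208 in positive and 563 in negative cells, with a median log2 fold change of -1.39. With the stricter rule that the whole 90% interval lie beyond a 2-fold change, 3809 probe sets (8.46%) remained, with 1396 (3.1%) higher and 2413 (5.36%) lower. The count of 11217 fell to 6541 without the first VEGF-R2 negative array and to 6451 without the second. When each gene was represented by its brightest probe set, 2910 of 18194 genes (16%) were higher and 2491 (13.7%) lower. The median log2 fold change over all genes was 0.16. The counts of gene list members called at day 2.5 stand beside these shares.

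**Figure D2:**
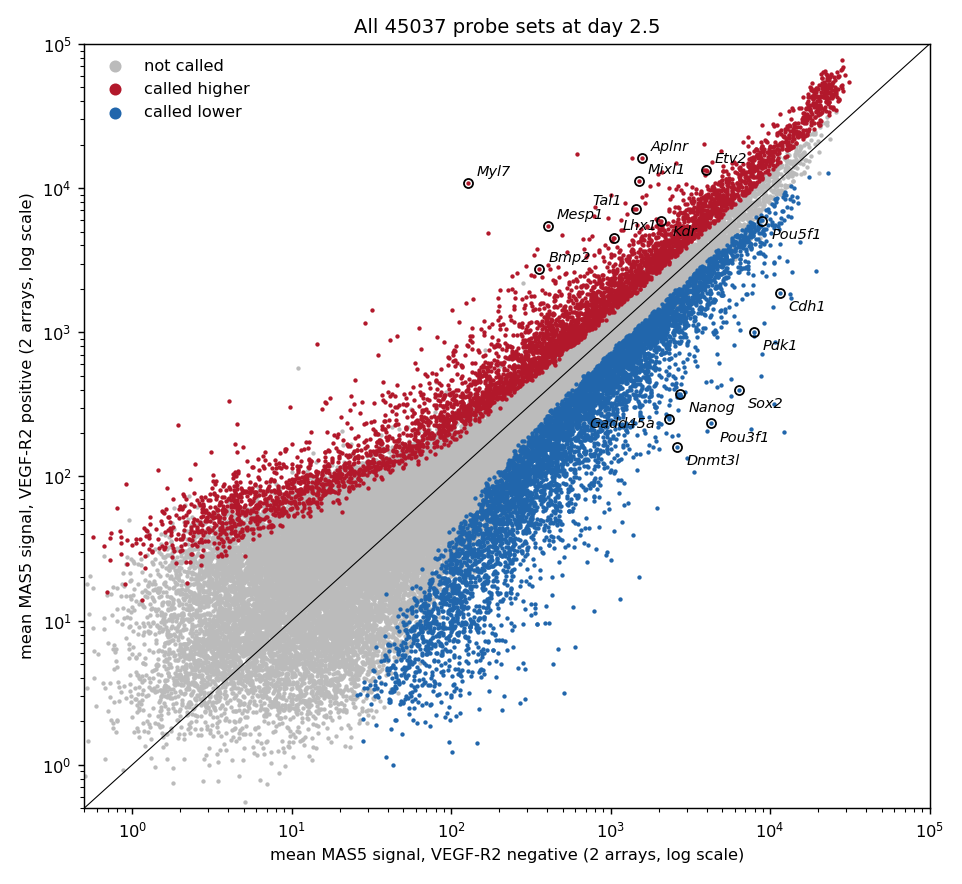
Mean MAS5 signal of each of the 45037 probe sets in VEGF-R2 positive (vertical) and VEGF-R2 negative cells (horizontal), 2 arrays each, both axes logarithmic, with probe sets called higher in red and lower in blue. Myl7, Mesp1 and Bmp2 lie far above the diagonal, while Sox2, Pou3f1 and Dnmt3l lie far below it.

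Genes of the primitive streak and of nascent mesoderm were more often higher than lower in VEGF-R2 positive cells. Of 25 measured members 11 were higher and 4 lower, against 16% and 13.7% of all genes, so the lower count lay near its share. The list median was 1.14 against 0.16 over all genes. Mesp1, a basic helix-loop-helix factor of the earliest cardiovascular mesoderm, gave 5677 and 5168 in positive cells, against 485 and 321 in negative cells. Mixl1, a homeobox gene of the streak, gave 11079 and 11204 in positive cells, against 1526 and 1477 in negative cells. The groups did not overlap for either gene, and the log2 fold changes were 3.76 (SE 0.26, adjusted p = 6.29e-08) for Mesp1 and 2.89 (SE 0.21, adjusted p = 1.18e-07) for Mixl1.

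The homeobox genes Evx1, Lhx1 and Gsc, which mark the streak and the organizer, followed. Evx1 had 2324 and 1495 in VEGF-R2 positive and 270 and 235 in VEGF-R2 negative cells (log2 fold change 2.86, SE 0.46, adjusted p = 0.000213). Lhx1 had 5135 and 3931 in positive and 1026 and 1063 in negative cells (2.10, SE 0.44, adjusted p = 0.00214). Gsc was dimmer, with 599 and 557 in positive and 165 and 141 in negative cells (1.88, SE 0.58, adjusted p = 0.025). Its call was lost without any 1 of these 4 arrays, at log2 fold changes between 1.77 and 1.98, and with a robust prior. Brachyury, the gene T, was not analysed here.

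Not all called members of this group were higher, though the lower count lay near the share of all genes. The T-box gene Eomes and the fibroblast growth factor Fgf8 were higher while Nodal, Fgf4, Wnt8a and Fgf5 were lower. Eomes had 5611 and 5157 in positive cells, against 1837 and 1566 in negative cells. Nodal, a TGF-beta family ligand that induces the streak and also acts in the epiblast, had 378 and 496 in positive cells, against 2599 and 2951 in negative cells. The log2 fold change was 1.66 for Eomes (SE 0.27, adjusted p = 0.000232) and -2.66 for Nodal (SE 0.21, adjusted p = 2.7e-07). The call of Fgf5 was lost without any 1 of the 4 arrays, at log2 fold changes between -1.73 and -1.53. It was also lost with quantile normalization, a floor or a robust prior.

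Members that did not pass the test included Tdgf1, the Nodal co-receptor Cripto, with 17375 and 13337 in positive and 10790 and 11368 in negative cells (adjusted p = 0.175). The presomitic mesoderm factors Tbx6 and Msgn1 and the caudal genes Cdx1, Cdx2 and Cdx4 did not pass it either. Cdx2 lay at 61.0 and 77.1 in positive and 76.0 and 83.9 in negative cells, below the median of all values. Of 15 paraxial mesoderm genes 1 was higher and 1 lower, against 16% and 13.7% of all genes. The 1 that was higher, Cyp26a1, which degrades retinoic acid, had 12019 and 13747 in positive cells, against 2095 and 2084 in negative cells. The 1 that was lower, Tcf15, a factor of somites, had 325 and 480 in positive cells, against 1950 and 1437 in negative cells.

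Promoters of 2 genes that were higher and 1 that was lower are printed here because short motifs of factor families known from the streak and from pluripotent cells occur in them. Of the 503 list genes measured, 355 had a promoter in the table used. Each is 300 bases of the RefSeq annotation of GRCm38.p6, from 250 bases before to 50 after the start site, 5' to 3' on the gene's own strand, with capitals for the motif matches. Mesp1 is at chr7:79793541-79793840 on the minus strand and holds a T-box and a TCF/LEF match. Sp5, a zinc finger gene induced by Wnt signalling, is at chr2:70474673-70474972 on the plus strand and holds a TCF/LEF match, at -104 to -98 from the start site, between 2 GATA matches, at -226 to -221 and -29 to -24. Zfp42, the pluripotency gene also called Rex1, is at chr8:43306960-43307259 on the minus strand and holds an octamer match.
Mesp1: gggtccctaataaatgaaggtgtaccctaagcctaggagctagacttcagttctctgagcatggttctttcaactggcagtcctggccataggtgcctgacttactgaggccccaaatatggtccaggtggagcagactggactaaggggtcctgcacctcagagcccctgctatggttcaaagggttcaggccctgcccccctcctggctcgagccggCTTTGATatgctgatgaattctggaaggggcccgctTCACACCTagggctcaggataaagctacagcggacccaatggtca
Sp5: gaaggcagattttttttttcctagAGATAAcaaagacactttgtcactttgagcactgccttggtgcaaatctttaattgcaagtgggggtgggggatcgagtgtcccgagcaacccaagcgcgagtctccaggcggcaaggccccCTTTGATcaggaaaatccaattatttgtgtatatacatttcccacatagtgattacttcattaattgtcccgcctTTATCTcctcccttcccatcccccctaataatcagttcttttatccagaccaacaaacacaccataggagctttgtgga
Zfp42: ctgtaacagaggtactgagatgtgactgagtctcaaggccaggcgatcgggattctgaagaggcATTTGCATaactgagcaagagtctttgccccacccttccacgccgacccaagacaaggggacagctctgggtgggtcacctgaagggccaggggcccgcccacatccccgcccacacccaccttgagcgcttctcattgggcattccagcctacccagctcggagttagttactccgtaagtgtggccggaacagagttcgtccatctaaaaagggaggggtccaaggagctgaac

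The T-box match of Mesp1 lay at +6 to +13 and its TCF/LEF match at -31 to -25 from the start site. The octamer match of Zfp42 lay at -186 to -179. Matches were searched on both strands as TCACACCT for T-box, AGATAA for GATA, ATGCAAAT for the octamer, TGTNNATT for FOXH1 and CTTTGAT for TCF/LEF, with overlaps allowed. Of the promoters of genes called higher, 2.86% held the TCF/LEF letters, against 2.29% for genes called lower and 2.94% for all genes tested. The T-box letters were in 1.12%, 0.752% and 1.07% of the promoters of the same 3 sets, and the octamer letters in 0.873%, 1.62% and 1.39%. GATA letters were in 7.44% of promoters of higher genes, 5.3% of lower genes and 8.07% of all genes tested, and FOXH1 letters in 7.16%, 6.51% and 8.67%. Over all 32851 promoters in the table the shares were 1.28% for T-box, 11.2% for GATA, 1.74% for the octamer, 12.2% for FOXH1 and 3.73% for TCF/LEF. The matches are descriptions of letters, not of bound sites.

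**Figure D3:**
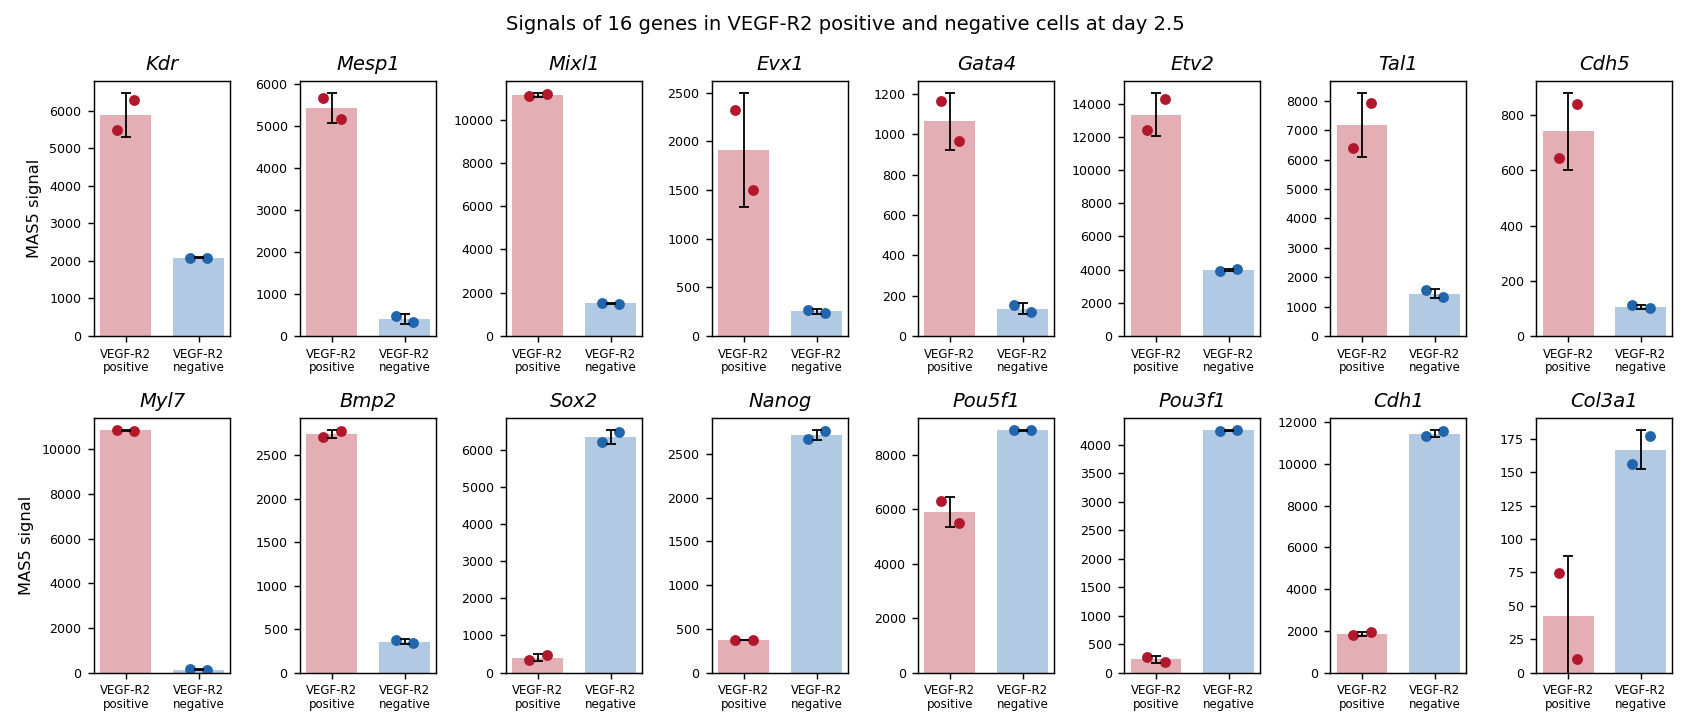
MAS5 signals of 16 genes in VEGF-R2 positive (red, left) and VEGF-R2 negative cells (blue, right) at day 2.5, with one point per array, bars for means and error bars for SD (n = 2). Kdr, streak, mesoderm and hemangioblast genes were higher in positive cells, and Sox2, Nanog, Pou3f1, Cdh1 and Col3a1 were lower, while the Pou5f1 difference did not pass the test.

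Factors of lateral plate, extraembryonic and cardiac mesoderm were higher or not called, with 12 of 23 measured members higher, none lower in limma after adjustment (3 at an unadjusted p under 0.05), and a list median of 1.37. Foxc2, a forkhead gene of mesoderm and vessels, had 363 and 569 in VEGF-R2 positive cells, against 33.6 and 16.04 in VEGF-R2 negative cells. Gata4, a zinc finger factor of cardiac mesoderm and endoderm, had 1164 and 965 in positive cells, against 153 and 117 in negative cells. Hand2, which acts in heart and limb mesoderm, had 397 and 352 in positive cells, against 63.4 and 37.6 in negative cells. The changes on the log2 scale were 3.96 (SE 0.76, adjusted p = 0.000963), 2.93 (SE 0.26, adjusted p = 8.76e-07) and 2.79 (SE 0.37, adjusted p = 3.69e-05), in the order named.

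Prdm6 and Tbx3, regulators of smooth muscle and of heart conduction tissue in the mouse, were higher by 2.44 and 2.10 on the log2 scale. The homeobox gene Msx1 had 2545 and 1959 in positive cells, against 557 and 596 in negative cells. Gata6 had 1821 and 1847 in positive cells, against 585 and 510 in negative cells. Hand1, a factor of extraembryonic and heart mesoderm, was higher by 1.73 (SE 0.28, adjusted p = 0.000254). Later cardiac factors did not pass the test, among them Nkx2-5, at 125 and 82.4 in positive and 60.6 and 82.4 in negative cells, and Mef2c, at 81.1 and 148 in positive and 120 and 96.6 in negative cells.

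Contractile genes were led by Myl7. This gene, which encodes the atrial regulatory myosin light chain, had 10854 and 10815 in VEGF-R2 positive cells, against 144 and 111 in VEGF-R2 negative cells. Its log2 fold change of 6.35 (SE 0.18, adjusted p = 3.18e-12), an 84.9-fold ratio of the means, was the first of the 12 largest increases chosen by the rule for named genes. Of 18 cardiac and smooth muscle genes, 6 were higher and 1 lower, against 16% and 13.7% of all genes. Fewer were higher without the second positive or the second negative array.

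Other contractile genes were dimmer. Tnni1, slow skeletal troponin I, which is also the embryonic heart form, had 138 and 93.3 in positive cells, against 7.46 and 3.98 in negative cells. Actc1, cardiac actin, had 697 and 554 in positive cells, against 165 and 160 in negative cells. Myh6, the alpha myosin heavy chain, was lower instead, with 111 and 65.2 in positive cells, against 436 and 375 in negative cells (log2 fold change -2.17, SE 0.36, adjusted p = 0.000285). The smooth muscle genes Acta2, Tagln, Cnn1 and Myh11 did not pass the test.

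Transcription factors of blood and endothelium were higher in 19 of 30 cases and lower in 4, against 16% and 13.7% of all genes. The list median was 1.48. Tal1, a basic helix-loop-helix factor required for blood, had 6402 and 7941 in VEGF-R2 positive cells, against 1548 and 1321 in VEGF-R2 negative cells (log2 fold change 2.31, SE 0.18, adjusted p = 2.42e-07). Etv2, an ETS factor required for both lineages, had 12421 and 14254 in positive cells, against 3913 and 4009 in negative cells (1.75, SE 0.18, adjusted p = 3.74e-06). Lmo2, which bridges Tal1 and GATA factors, had 9317 and 9257 in positive cells, against 3456 and 3418 in negative cells (1.43, SE 0.20, adjusted p = 5.32e-05). All 3 genes were therefore bright in the negative cells too.

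The larger changes of this group belonged to dimmer genes. Gata3 had 254 and 227 in positive cells, against 43.5 and 19.7 in negative cells. Erg, an ETS factor of endothelium and blood stem cells, had 596 and 742 in positive cells, against 98.9 and 91.1 in negative cells. Gfi1b, a repressor of the erythroid and megakaryocyte lines, had 274 and 266 in positive cells, against 46.2 and 44.1 in negative cells. On the log2 scale they were higher by 2.78, 2.73 and 2.43, and those of Cbfa2t3, Lyl1 and Gata2 were 2.33, 2.16 and 1.50, with adjusted p-values of 0.000777 or less for each of the 6.

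Other factors did not pass the test or were lower. Runx1, required for definitive blood, had 145 and 181 in positive and 64.6 and 35.8 in negative cells (adjusted p = 0.0831), and 1 of its 5 other probe sets was called higher (2.51, SE 0.61, adjusted p = 0.0058). Gata1, the erythroid GATA factor, had 142 and 155 in positive and 129 and 87.1 in negative cells (adjusted p = 0.301). Fli1, Ets1, Elk3 and Sox18 had adjusted p-values between 0.0911 and 0.804, and another, dimmer probe set of Ets1 was called higher (0.86, SE 0.30, adjusted p = 0.045). Klf2, a factor of flow-exposed endothelium that is also part of the naive pluripotency network, had 322 and 403 in positive cells, against 2099 and 2056 in negative cells (-2.51, SE 0.17, adjusted p = 3.91e-08). Myb, a factor of definitive blood, was lower by 1.88 (SE 0.16, adjusted p = 5.52e-07). The other two that were lower, Cbfb and Tcf4, partners of other factors, had log2 fold changes of -0.66 and -0.68, and the probe sets of Tcf4 disagreed in direction.

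Endothelial genes were higher in 17 of 26 cases and lower in none in limma, either after adjustment or, with 0 of 26, at an unadjusted p under 0.05, and the list median was 1.84. Aplnr, the apelin receptor, had 15057 and 17406 in VEGF-R2 positive cells, against 1531 and 1617 in VEGF-R2 negative cells (log2 fold change 3.36, SE 0.28, adjusted p = 4.67e-07). The adhesion molecule Icam2 had 1533 and 2414 in positive cells, against 215 and 192 in negative cells. Ramp2, a co-receptor for adrenomedullin, had 6294 and 8404 in positive cells, against 791 and 799 in negative cells. Cdh5, vascular endothelial cadherin or CD144, reached 643 and 839 in positive cells, against 110 and 100.1 in negative cells.

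The angiopoietin receptor family and Egfl7 behaved in the same way. Tie1 had 399 and 596 in positive cells, against 73.6 and 67.3 in negative cells. Tek had 1487 and 1557 in positive cells, against 293 and 199 in negative cells. Egfl7, which encodes a secreted endothelial protein and hosts a microRNA gene, had 7692 and 9789 in positive cells, against 1611 and 1514 in negative cells. Pecam1, Eng, Cd34 and Cav1 did not pass the test. Pecam1 lay at 308 and 279 in positive and 270 and 273 in negative cells, a log2 fold change of 0.11 with SE 0.27.

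Among the VEGF receptors, neuropilins and ligands, 6 of 11 were higher and none lower in limma (0 at an unadjusted p under 0.05). Nrp2, a neuropilin co-receptor, exceeded Kdr itself in its change, with 6306 and 6534 in VEGF-R2 positive cells, against 730 and 853 in VEGF-R2 negative cells (log2 fold change 3.01, SE 0.17, adjusted p = 9.76e-09). Flt1, VEGF receptor 1, had 1506 and 1597 in positive cells, against 294 and 286 in negative cells (2.40, SE 0.21, adjusted p = 5.7e-07). Nrp1 had 2691 and 2646 in positive cells, against 831 and 653 in negative cells (1.85, SE 0.21, adjusted p = 7.88e-06). The ligand Vegfa, at 402 and 371 in positive and 301 and 305 in negative cells, and the receptor Flt4, at 2735 and 2605 in positive and 1708 and 1727 in negative cells, did not pass the test (adjusted p = 0.199 and 0.0837).

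Of 19 primitive erythroid genes 9 were higher and 2 lower, against 16% and 13.7% of all genes, so the lower count did not exceed its share. Both counts were smaller without any 1 of the 4 arrays. With each gene represented by its probe set of largest variance, 6 were higher and 1 lower. Hbb-bh1, an embryonic beta-like globin, had 268 and 460 in VEGF-R2 positive cells, against 147 and 108 in VEGF-R2 negative cells (log2 fold change 1.44, SE 0.23, adjusted p = 0.000196). Hba-x, the embryonic zeta globin, lay at 19.5 and 10.9 in positive and 23.0 and 11.2 in negative cells. Gypc, a red cell glycophorin, was higher by 2.14. The lower genes were Tfrc, the transferrin receptor, and Fech. Ferrochelatase, the product of Fech, which completes heme, had 900.1 and 732 in positive cells, against 1421 and 1428 in negative cells.

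Of 17 megakaryocyte, myeloid and leukocyte genes 4 were higher, 2 of them without the second positive array, and none lower in limma (0 at an unadjusted p under 0.05). The 4, beside 16% of all genes called higher, were Itga2b, Gp1bb, Cd52 and Csf1r. Itga2b, the CD41 integrin, had 639 and 895 in positive cells, against 229 and 189 in negative cells (1.83, SE 0.24, adjusted p = 2.84e-05). Ptprc, the pan-leukocyte CD45, had 81.5 and 19.6 in positive and 9.27 and 23.7 in negative cells, so that the groups overlapped.

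Surface and adhesion genes of mesoderm were higher in 11 of 24 cases and lower in 2, against 16% and 13.7% of all genes. Fewer were higher without the first or the second negative array. Fewer were lower without either of these or the second positive array. Cdh11, a mesenchymal cadherin, had 4129 and 2720 in positive cells, against 639 and 779 in negative cells. Cxcr4, the chemokine receptor of migrating mesoderm and endoderm, had 1802 and 1368 in positive cells, against 344 and 388 in negative cells. Pdgfra, a receptor of paraxial and cardiac mesoderm, had 1060 and 866 in positive cells, against 405 and 389 in negative cells. The log2 fold changes were 2.24, 2.09 and 1.26, with adjusted p-values of 3.36e-06, 0.00274 and 0.000696. Kit, the stem cell factor receptor, had 905 and 719 in positive and 609 and 610 in negative cells (adjusted p = 0.141). The lower members were the ephrin receptor Epha1 and the integrin Itgav, which had 1216 and 1290 in positive cells, against 2358 and 2347 in negative cells.

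Pluripotency genes were lower in 18 of 28 cases and higher in 1, with a list median of -1.94. Sox2 had 335 and 461 in VEGF-R2 positive cells, against 6226 and 6487 in VEGF-R2 negative cells (log2 fold change -3.99, SE 0.30, adjusted p = 1.38e-07). Dnmt3l, a cofactor of DNA methylation in germ and stem cells, had 140 and 178 in positive cells, against 2595 and 2643 in negative cells (-4.00, SE 0.24, adjusted p = 1.35e-08). Nanog had 375 and 374 in positive cells, against 2671 and 2755 in negative cells (-2.84, SE 0.24, adjusted p = 4.67e-07). Dppa2, the Nodal antagonist Lefty1 and Fgf4 had log2 fold changes of -3.96, -3.55 and -3.49.

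Zfp42, whose promoter carries the octamer shown above, had 317 and 591 in positive cells, against 4041 and 3885 in negative cells (-3.18, SE 0.23, adjusted p = 1.06e-07). Pou5f1, which encodes the octamer-binding factor Oct4, differed less, with 6299 and 5498 in positive and 8912 and 8896 in negative cells. Its log2 fold change was -0.60 with SE 0.44, and it did not pass the test (adjusted p = 0.358). Sall4, Klf4, Klf5 and Tfcp2l1 did not pass it either. The member that was higher was Tbx3, described above among the mesoderm factors.

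Epiblast and neuroectoderm genes were lower in 7 of 21 cases and higher in 1. Pou3f1, a POU factor of epiblast and early neural cells, had 276 and 190 in VEGF-R2 positive cells, against 4246 and 4257 in VEGF-R2 negative cells (log2 fold change -4.18, SE 0.25, adjusted p = 1.49e-08). Gbx2, a homeobox gene of epiblast and hindbrain, had 108 and 66.6 in positive cells, against 822 and 897 in negative cells. Sox3 had 206 and 170 in positive cells, against 720 and 747 in negative cells. The neural genes Sox1 and Pax6 did not pass the test, and their highest signal on the 4 arrays was 117. Rax, an eye field gene, was called higher at 46.9 and 76.4 in positive cells, against 3.77 and 5.71 in negative cells, all below the median of all values, and its call was lost without the second positive, the first negative or the second negative array, at 2.30, 2.49 and 2.75.

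Epithelial and epithelial-mesenchymal transition genes moved in both directions, with 8 of 23 higher and 10 lower, and 5 higher without the first positive, the first negative or the second negative array. Cdh1, epithelial cadherin, had 1800 and 1932 in VEGF-R2 positive cells, against 11322 and 11579 in VEGF-R2 negative cells (log2 fold change -2.61, SE 0.28, adjusted p = 5.09e-06). Esrp1, a splicing regulator of epithelia, had 245 and 220 in positive cells, against 2033 and 2085 in negative cells (-3.12, SE 0.23, adjusted p = 1.32e-07). The tight junction gene Cldn6 and the epithelial factor Grhl2 had log2 fold changes of -2.53 and -2.16. Cldn4, another tight junction gene, had 23.4 and 253 in positive cells, against 782 and 783 in negative cells.

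On the mesenchymal side, Vim, the filament vimentin, had 16735 and 19259 in positive cells, against 4856 and 4951 in negative cells. Zeb1, a repressor of Cdh1, had 1084 and 934 in positive cells, against 257 and 321 in negative cells. Zeb2 had 297 and 318 in positive cells, against 107 and 70.6 in negative cells. The log2 fold changes were 1.87, 1.79 and 1.75, with adjusted p-values of 2.77e-07, 1.96e-06 and 0.000338. Snai1, Twist1 and Cdh2, the neural cadherin, were higher by 1.23, 1.73 and 0.82. The calls of Twist1 and Cdh2 were lost without any 1 of the 4 arrays, at 1.50 to 1.96 and 0.70 to 0.93. That of Snai1 was lost without the first positive array, at 0.71, and without either negative array, at 1.20 and 1.27. With a robust prior the calls of Snai1, Twist1 and Cdh2 were lost. Median centring also removed those of Twist1 and Cdh2, and a floor those of Snai1 and Cdh2. Snai2 did not pass the test and had 64.3 and 43.1 in positive and 125 and 164 in negative cells.

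Of 25 matrix genes 5 were higher and 10 lower, and 6, 5 and 5 were lower without the second positive, the first negative and the second negative array. Of all genes, 16% were higher and 13.7% lower. Sparc, a matrix glycoprotein, had 12385 and 17604 in VEGF-R2 positive cells, against 2645 and 2473 in VEGF-R2 negative cells. The basement membrane collagens Col4a1 and Col4a2 were higher by 1.56 and 1.88. The laminin chains Lamc1 and Lama5 had log2 fold changes of -1.69 and -1.51. Vcan, the proteoglycan versican, was higher by 1.23 (SE 0.24, adjusted p = 0.00105). Fn1, fibronectin, was called higher by its brightest probe set, at 27316 and 28246 in positive cells, against 10496 and 10470 in negative cells, while another probe set of the gene was called lower.

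BMP, Nodal and TGF-beta genes were higher in 11 of 29 cases and lower in 4, against 16% and 13.7% of all genes. The lower count thus lay near the share of all genes. Fewer were higher without any 1 of the 4 arrays. With each gene represented by its probe set of largest variance, 8 were higher and 5 lower. Among the ligands, Bmp2 had 2710 and 2775 in VEGF-R2 positive cells, against 376 and 338 in VEGF-R2 negative cells (log2 fold change 2.92, SE 0.17, adjusted p = 9.11e-09). Bmp4, which induces mesoderm, had 3579 and 3035 in positive cells, against 669 and 724 in negative cells (2.23, SE 0.17, adjusted p = 2.03e-07). Tgfb1 had 4736 and 4578 in positive cells, against 753 and 767 in negative cells (2.61, SE 0.13, adjusted p = 4e-09). Nodal and its antagonist Lefty1 were lower, as given above, whereas Lefty2 had 1841 and 1220 in positive and 1323 and 1426 in negative cells and did not pass the test.

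Inside the cell, the BMP-responsive Smad1 had 4026 and 3538 in positive cells, against 1512 and 1527 in negative cells. The inhibitory Smad6 was higher by 1.88, and Smad5 had a log2 fold change of -1.01. Foxh1, which carries Nodal signals to DNA, was among the streak genes that were higher, with 5078 and 3710 in positive cells, against 1431 and 1306 in negative cells (1.66, SE 0.16, adjusted p = 2.11e-06). Of the Id genes, targets of BMP signalling, Id2 had 689 and 554 in positive cells, against 1643 and 1744 in negative cells (-1.45, SE 0.29, adjusted p = 0.0016). Id1 was called higher, with 3607 and 5128 in positive cells, against 2899 and 3022 in negative cells (0.54, SE 0.18, adjusted p = 0.0413). This call was lost without the second positive array, at 0.28, and without the first or the second negative array, at 0.51 and 0.57. It was also lost with quantile normalization, median centring, a floor, a robust prior or a fit of only the compared arrays. Id3, with 3593 and 4549 in positive and 1917 and 2010 in negative cells, did not pass the test (adjusted p = 0.0654).

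Wnt genes were higher in 14 of 28 cases and lower in 5, against 16% and 13.7% of all genes. Fewer were higher without the second negative array. Rspo3, a secreted enhancer of Wnt signalling, had 1833 and 1973 in VEGF-R2 positive cells, against 321 and 291 in VEGF-R2 negative cells (log2 fold change 2.61, SE 0.21, adjusted p = 3.31e-07). Sp5, whose promoter is printed above, had 2471 and 2113 in positive cells, against 415 and 456 in negative cells (2.38, SE 0.22, adjusted p = 1.41e-06). Dkk1, a secreted Wnt antagonist that is itself a Wnt target, had 1261 and 911 in positive cells, against 265 and 287 in negative cells (1.93, SE 0.19, adjusted p = 1.65e-06). Lgr5, an R-spondin receptor, was higher by 1.88. The target Axin2 was called higher by its brightest probe set and lower by its other one.

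On the other side of this pathway, the ligand Wnt8a had 79.1 and 44.8 in positive cells, against 211 and 216 in negative cells. Sfrp2, a secreted antagonist, had 294 and 207 in positive cells, against 738 and 743 in negative cells. The receptor Fzd2 had 792 and 796 in positive cells, against 1381 and 1342 in negative cells, and the receptors Fzd7 and Fzd8 had log2 fold changes of -0.58 and -1.19. The streak ligands Wnt3 and Wnt3a did not pass the test, with 108 and 237 for Wnt3 in positive and 110 and 87.5 in negative cells.

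FGF genes were lower in 8 of 19 cases and higher in 2, against 13.7% and 16% of all genes. Fgf3 had 2755 and 2398 in VEGF-R2 positive cells, against 263 and 256 in VEGF-R2 negative cells (log2 fold change 3.28, SE 0.21, adjusted p = 2.58e-08). Fgf4 had 88.0 and 100.2 in positive cells, against 1090 and 1136 in negative cells. Fgf8, the other ligand that was higher, had 752 and 883 in positive cells, against 345 and 324 in negative cells. The receptor Fgfr2 and the ETS factor Etv5, an FGF target, had log2 fold changes of -1.89 and -1.41. Fgfr1, the main receptor of early mesoderm, had 1005 and 1003 in positive and 1056 and 929 in negative cells, and the groups overlapped.

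Notch genes were higher in 4 of 18 cases and lower in 4, against 16% and 13.7% of all genes, and lower in 2 without the first positive array. The targets Hey2, Nrarp and Hey1 and the ligand Dll4 were higher, by 2.30, 1.65, 1.27 and 1.47. The call of Hey1 was lost without the second positive array, at 0.77, and that of Dll4 without the second positive, the first negative or the second negative array, at 1.39, 1.49 and 1.45. Nrarp had 2012 and 2097 in VEGF-R2 positive cells, against 667 and 635 in VEGF-R2 negative cells. The ligands Jag1 and Jag2, the receptor Notch2 and the DNA-binding partner Rbpj were lower, with 463 and 557 for Jag1 in positive cells, against 1251 and 1242 in negative cells. The call of Jag2 was lost without the first positive array, at -0.92, and that of Notch2 without any 1 of the 4 arrays, at -0.62 to -0.55, and with quantile normalization, median centring or a robust prior. The receptors Notch1, Notch3 and Notch4 did not pass the test.

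Hox genes were mostly dim, with 8 of 29 higher, against 16% of all genes. None was lower in limma (0 at an unadjusted p under 0.05), against 13.7% of all genes. Fewer were higher without the second positive, the first negative or the second negative array. Hoxb2 was the brightest of those called, at 1012 and 877 in VEGF-R2 positive cells, against 149 and 122 in VEGF-R2 negative cells (log2 fold change 2.75, SE 0.22, adjusted p = 3.19e-07). Hoxb1 had 688 and 464 in positive cells, against 101 and 133 in negative cells (2.23, SE 0.33, adjusted p = 9.57e-05). Hoxb5 had 210 and 123 in positive cells, against 6.47 and 2.35 in negative cells (4.03, SE 0.53, adjusted p = 3.62e-05).

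Of 18 definitive endoderm genes 10 were higher and 2 lower, against 16% and 13.7% of all genes. However, 5 of those that were higher, Gata4, Gata6, Lhx1, Gsc and Cxcr4, are also in the mesoderm lists. Among the others, Sox17 and Hhex are also in the list of blood and endothelial factors. The call of Hnf4a was lost when only the compared arrays were fitted, and without the second positive, the first negative or the second negative array. Cer1, a secreted antagonist of anterior endoderm, had 271 and 425 in VEGF-R2 positive cells, against 108 and 68.9 in VEGF-R2 negative cells (1.90, SE 0.25, adjusted p = 3.47e-05). Foxa2, the defining endoderm factor, had 127 and 177 in positive and 146 and 105 in negative cells and did not pass the test. Epcam and the thyrotropin-releasing hormone gene Trh had log2 fold changes of -1.94 and -1.68.

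Of 22 yolk sac and visceral endoderm genes 7 were higher and 4 lower, and 2 or fewer were lower without any 1 of the 4 arrays. Of all genes, 16% were higher and 13.7% lower. Rbp4, the retinol carrier, had 468 and 606 in positive cells, against 148 and 166 in negative cells. The lower members were Cubn, its partner Amn, Dab2 and Lamb1. Cubn, an endocytic receptor of visceral endoderm, was at 34.1 and 6.34 in positive cells, against 286 and 339 in negative cells. Afp, Ttr and Apoa1 lay between 4.55 and 75.6 on the 4 arrays and did not pass the test. Of 12 trophoblast genes 3 were higher, Eomes and Hand1 of the mesoderm lists and Plac1, and 2 were lower, Krt7 and Ascl2, with 1 lower without the second positive, the first negative or the second negative array. The trophoblast counts stand beside the same shares of all genes, 16% higher and 13.7% lower. Plac1 was at 453 and 453 in positive cells, against 29.1 and 45.9 in negative cells. Ascl2 was at 6.47 and 16.5 in positive cells, against 191 and 150 in negative cells.

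**Figure D4:**
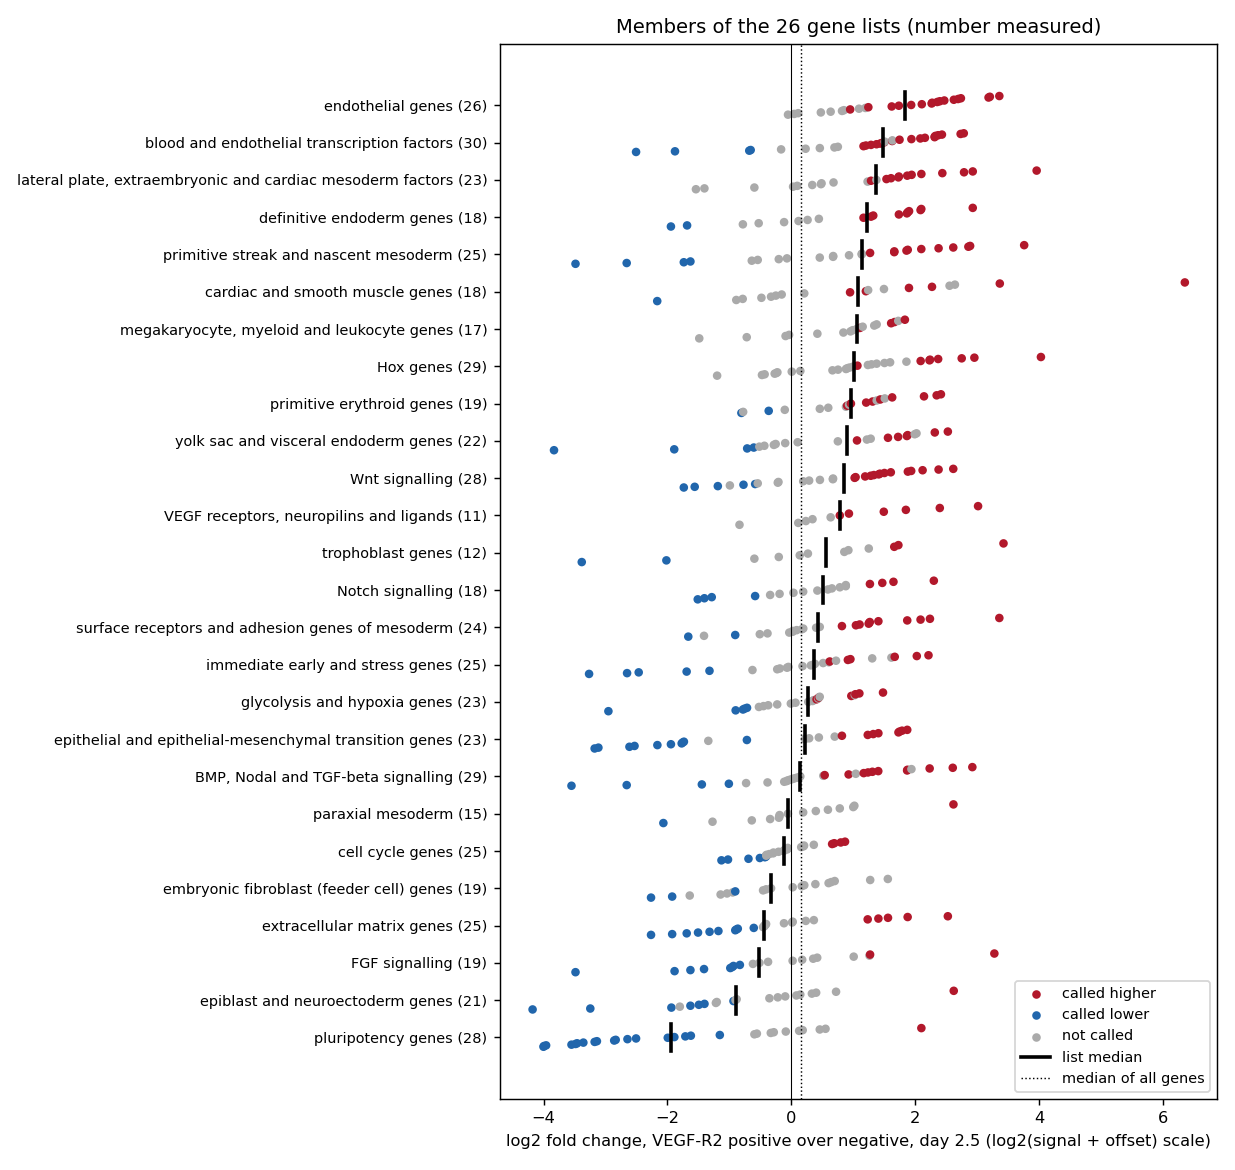
Log2 fold change, VEGF-R2 positive over negative at day 2.5, of each measured member of the 26 gene lists, 1 point per gene, sorted by the list median (black bar), with the dotted line at the median of all 18194 genes, 0.16. Endothelial genes had the highest list median, 1.84, and pluripotency genes the lowest, -1.94.

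The defining markers of other cells that a sort could hold were summed over their members. Markers of undifferentiated embryonic stem cells (Pou5f1, Nanog, Sox2 and Zfp42) summed to 7326 and 6924 in VEGF-R2 positive cells and to 21850 and 22024 in VEGF-R2 negative cells, with 3 of 4 lower. Those of feeder fibroblasts (Col1a1, Col1a2, Col3a1, Dcn, Lum and Postn) summed to 488 and 513 in positive and 1002 and 919 in negative cells, with 3 of 6 lower. Endothelial markers (Cdh5, Pecam1, Tie1 and Tek) summed to 2838 and 3271 in positive and 747 and 640 in negative cells, with 3 of 4 higher. Mesoderm markers (Mixl1, Mesp1 and Pdgfra) summed to 17816 and 17237 in positive and 2417 and 2187 in negative cells, with all 3 higher.

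Marker sums of blood, endoderm and neuroectoderm were taken in the same way, and sums of different genes are not compared with each other. Blood markers (Hba-x, Hbb-y, Itga2b and Ptprc) summed to 778 and 1001 in positive and 275 and 250.5 in negative cells, most of it from Itga2b. Endoderm markers (Foxa2, Sox17, Afp, Ttr and Apoa1) summed to 879 and 1211 in positive and 544 and 469.9 in negative cells. Sox17, which is also in the list of blood and endothelial factors, was the 1 member that was higher. Neuroectoderm markers (Sox1 and Pax6) summed to 90.4 and 58.7 in positive and 129 and 178 in negative cells. Among 19 fibroblast genes none was higher in limma (0 at an unadjusted p under 0.05) and 3 were lower, Col1a2, Col3a1 and Postn, against 13.7% of all genes, with 1 lower without the first or the second negative array, and the part of feeder cells in the matrix results was not tested.

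Of 25 cell cycle genes 4 were higher and 6 lower, against 16% and 13.7% of all genes. Log2 fold changes lay between -1.13 and 0.87 over the whole list. The lower count depended on the probe set chosen. With each gene represented by its probe set of largest variance, 4 were higher and 11 lower. The shares of all genes under that choice were not taken. The higher members were Cdk1, Pcna, Birc5 and Ccnb2. The call of Pcna was lost with quantile normalization. Cdk1 and Birc5 lay in the bright range, where the brightest values of the positive arrays exceeded those of the negative arrays. The part of this difference in their values was not tested. Cdk1, the mitotic kinase, had 11386 and 11290 in VEGF-R2 positive cells, against 6474 and 6565 in VEGF-R2 negative cells. Ccne1, cyclin E1, had 1901 and 1053 in positive cells, against 3006 and 3200 in negative cells. The inhibitor Cdkn1b had 777 and 516 in positive cells, against 1282 and 1305 in negative cells.

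Of the stress and hypoxia genes, Gadd45a and Pdk1 had the lowest log2 fold changes of their lists. Gadd45a, a gene of the DNA damage response, had 326 and 171 in positive cells, against 2233 and 2420 in negative cells (-3.27, SE 0.29, adjusted p = 7.99e-07). Pdk1, a mitochondrial kinase that restrains pyruvate oxidation, had 999 and 1021 in positive cells, against 8049 and 7689 in negative cells (-2.95, SE 0.14, adjusted p = 1.89e-09). The heat shock gene Hspa1b had 333 and 271 in positive cells, against 1796 and 2056 in negative cells, and its near-identical neighbour Hspa1a may share its probe signal. Of 25 immediate early and stress genes 6 were higher and 5 lower, against 16% and 13.7% of all genes, but 1, 2 and 3 were higher without the second positive, the first negative and the second negative array and 3 were lower without the first negative array. Of 23 glycolysis and hypoxia genes 6 were higher and 5 lower, beside the same shares of all genes, and fewer were lower without the first negative array. By the probe set of largest variance of each gene, 7 of them were higher and 8 lower. The 5 lower stress genes were Gadd45a, Hspa1a, Hspa1b, Trib3 and Dusp1, and the 5 lower metabolic genes Pdk1, Hk2, Bnip3, P4ha2 and Pfkl.

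The immediate early gene Fos was uneven between the duplicates, with 1660 and 5865 in positive cells, against 823 and 542 in negative cells. Its call was lost without the second positive array, at 1.31, or the second negative array, at 1.92, and with a robust prior. Atf3, a stress-induced factor, had 995 and 1217 in positive cells, against 259 and 273 in negative cells (2.03, SE 0.28, adjusted p = 5.68e-05). The glycolytic enzymes Ldha and Aldoa were higher by 1.10 and 0.97, in the range of signals where the brightest values of the positive arrays exceeded those of the negative arrays, and its part in these values was not tested. Egln3, an oxygen sensor, had 3174 and 3331 in positive cells, against 1203 and 1122 in negative cells.

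Over all probe sets, the 12 largest changes in each direction were taken among called probe sets with 1 gene symbol, arrays that did not overlap and a mean above the median of all values in the higher group. Arrays did not overlap for 33.8% of all probe sets in the higher and 31.1% in the lower direction. After Myl7, the probe sets with the greatest increase belonged to Gcnt2, Ehf, Cd93, 1700110I01Rik, Asb4, Syt11, Hapln1, Cnmd, Dus2, Slc45a3 and Hoxb5. Asb4, an ankyrin and SOCS box protein of embryonic vessels, had 4465 and 5260 in VEGF-R2 positive cells, against 174 and 165 in VEGF-R2 negative cells (log2 fold change 4.79, SE 0.41, adjusted p = 4.66e-07). Hapln1, a hyaluronan link protein, had 857 and 908 in positive cells, against 40.9 and 42.3 in negative cells. Cd93, an endothelial surface receptor, had 181 and 485 in positive cells, against 5.59 and 2.55 in negative cells.

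The greatest decreases belonged to Mga, Rc3h2, Taok1, Fscn1, Mgp, Slc2a3, Etnk1, Fgf4, Ssbp2, Sned1, Setdb1 and Sfpq. Mga, a T-box and Max partner protein, had 17.0 and 11.4 in positive cells, against 1203 and 1069.7 in negative cells (-5.83, SE 0.32, adjusted p = 7.24e-09). Mgp, matrix Gla protein, had 8.16 and 15.0 in positive cells, against 818 and 746 in negative cells (-5.51, SE 0.86, adjusted p = 0.000168). Sfpq, a splicing factor, had 131 and 81.8 in positive cells, against 3211 and 3494 in negative cells, and 5 of its 6 probe sets were lower.

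Several of these genes were not settled by a single probe set. Other probe sets ran the opposite way for Gcnt2 (1 higher and 4 lower of 8), Syt11 (1 higher and 3 lower of 5), Fscn1 (2 higher and 2 lower of 4) and Slc2a3 (1 higher and 2 lower of 4). Of 9009 genes with 2 or more probe sets, 4604 had at least 1 call and 259 had calls in both directions. Among list members these were Axin2, Fn1, Itgb1, Slc2a3, Tcf4 and Utf1, which the counts above hold by their brightest probe set. Of the genes given above as not passing the test by that probe set, Runx1, Ets1, Acta2 and Col1a1 had another probe set called higher, and Mef2c, Notch3 and Sall4 another called lower. Of the 12 largest increases, 9 probe sets were also higher in the positive cells of all 3 other sorts, against 29.4% of all probe sets higher at day 2.5, and of the 12 largest decreases 5 were also lower in all 3, against 26.9% of all lower ones. The 12 were chosen for their size and for brightness in the higher group, which the other probe sets were not. The hybridization controls given above differ between positive and negative arrays in all 4 sorts, and their part in these shared changes was not tested.

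Each day 2.5 difference was set against the same difference in the CD41 sort of day 3.5 and the CD144 sorts of days 3.5 and 6.5, which share no array with it. Of the 5007 probe sets higher in VEGF-R2 positive cells, 2985 were also higher in CD41 positive cells, which is 59.6% of the day 2.5 set and 49.2% of the CD41 set, where 29.3% of all probe sets were called, 13.5% higher and 15.8% lower. For the CD144 sorts the shared counts were 2218 at day 3.5 (44.3% and 51.9%) and 2158 at day 6.5 (43.1% and 50.9%), where 20% and 19.5% of all probe sets were called, 9.49% and 9.42% higher and 10.5% and 10.1% lower. Of the probe sets higher at day 2.5, 1471 were higher in all 3 other sorts and 1501 in none, and of the 6210 lower ones 1669 were lower in all 3 and 1406 in none.

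The difference itself was tested with an interaction term. The day 2.5 difference was not the same as that of the CD41 sort for 2128 probe sets (4.73%), with 1079 (2.4%) more positive and 1049 (2.33%) more negative at day 2.5. For the CD144 sort of day 3.5 it differed for 2389 (5.3%), with 991 (2.2%) more positive and 1398 (3.1%) more negative, and for that of day 6.5 for 2181 (4.84%), with 922 (2.05%) more positive and 1259 (2.8%) more negative. With each array centred on its median, the split for the CD144 sort of day 3.5 was 952 more positive and 851 more negative. Without the first VEGF-R2 negative array the 3 counts were 1124, 1255 and 973, and without the second 1077, 1282 and 964. Without the first or the second CD41 negative array the count against the CD41 sort was 1212 each time, and without the first or the second CD144 negative array of day 3.5 the count against that sort was 1529 and 1308.

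Streak genes, of which 11 of 25 were higher at day 2.5, were lower in the positive cells of the later sorts in 13, 17 and 15 cases, in the CD41 sort and the CD144 sorts of days 3.5 and 6.5, against 17.2%, 10.3% and 11.9% of all genes. The log2 fold change of Mesp1 was 3.76 at day 2.5, 0.52 in the CD41 sort and -2.19 and -1.87 in the CD144 sorts of days 3.5 and 6.5, and the difference was called against each (adjusted p = 4.39e-05, 4.96e-08 and 1.2e-07). For Mixl1 the values were 2.89 at day 2.5 and -1.75, -3.19 and -4.90 in the CD41 sort and the CD144 sorts of days 3.5 and 6.5. Its signals were 339 and 645 in CD41 positive cells, against 1616 and 1560.0 in CD41 negative cells, and 448 and 456 in CD144 positive cells of day 3.5, against 4020.4 and 4309.6 in CD144 negative cells. For Eomes they were 1.66 at day 2.5 and -2.86, -2.55 and -3.88. Of the 25 streak genes measured, the change at day 2.5 was more positive than in the CD41 sort for 13, than in the CD144 sort of day 3.5 for 14 and than in that of day 6.5 for 12, against 4.01%, 3.59% and 3.31% of all genes.

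Bmp2, Gata4, Aplnr and Myl7 also had a larger change at day 2.5 than in each other sort. The change of Myl7 was 6.35 at day 2.5, 3.87 in the CD41 sort, -0.46 in the CD144 sort of day 3.5 and 1.11 in that of day 6.5. Pdgfra, Cdh11 and Cdh2 were higher in VEGF-R2 positive cells and lower in CD41 positive cells, with log2 fold changes of 1.26, 2.24 and 0.82 at day 2.5 and of -1.01, -1.48 and -1.85 in the CD41 sort.

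Many endothelial and blood genes had a smaller change at day 2.5. Cdh5, which encodes the marker of the CD144 sorts, changed by 2.74 at day 2.5 and by 5.38, 5.85 and 6.05 in the CD41 sort and the CD144 sorts of days 3.5 and 6.5, and the difference was called against each (adjusted p = 0.00351, 0.000776 and 0.000628). Tie1 changed by 2.69 at day 2.5 and by 7.71, 7.30 and 7.74 in the other sorts. Tal1 changed by 2.31 at day 2.5 and by 6.99, 3.85 and 2.12, and its difference from the last of these did not pass the test (adjusted p = 0.774). Of the 30 blood and endothelial factors, 22 had a more negative value at day 2.5 than in the CD41 sort (against 3.72% of all genes), and of the 26 endothelial genes 19 had one than in the CD144 sort of day 6.5 (against 3.91%).

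The labels name a single marker for each sort, while the study's text also describes the CD41 positive and the CD144 positive cells as VEGF-R2 positive. Kdr itself changed less at day 2.5 than in the CD41 sort (1.49 against 4.93, adjusted p = 2.85e-05 for the difference) and than in the CD144 sort of day 6.5 (3.66, adjusted p = 0.00248), while its difference from the CD144 sort of day 3.5 (2.16) did not pass the test (adjusted p = 0.403). When the probe sets called the same way in all 3 other sorts were left out, an alternative added after the data were seen, 11 of the 11 streak genes and 12 of the 12 lateral plate factors remained among the higher ones. Of the endothelial genes 1 of 17 remained, of the blood and endothelial factors 4 of 19 and of the VEGF genes 1 of 6. No streak gene or lateral plate factor was higher in all 4 sorts, so this step could not remove one. It restates the calls of the other sorts and does not test how firm the day 2.5 calls are.

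Of the 28 pluripotency genes, 26 were lower in the CD41 sort (against 17.2% of all genes), and 12 were higher and 7 lower in the CD144 sort of day 3.5 (against 13.7% and 10.3%). Sox2 changed by -3.99 at day 2.5, -4.83 in the CD41 sort, 0.69 in the CD144 sort of day 3.5 and -0.25 in that of day 6.5. The difference from the CD41 sort did not pass the test (adjusted p = 0.37), and those from the CD144 sorts did (adjusted p = 2.76e-06 and 4.72e-05). Of the 28 members, 18 had a more negative change at day 2.5 than in the CD144 sort of day 3.5, against 4.75% of all genes. Klf2 and Myb differed from all 3 sorts, with -2.51 and -1.88 at day 2.5 and 1.33 and 1.11 in the CD144 sort of day 3.5.

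**Figure D5:**
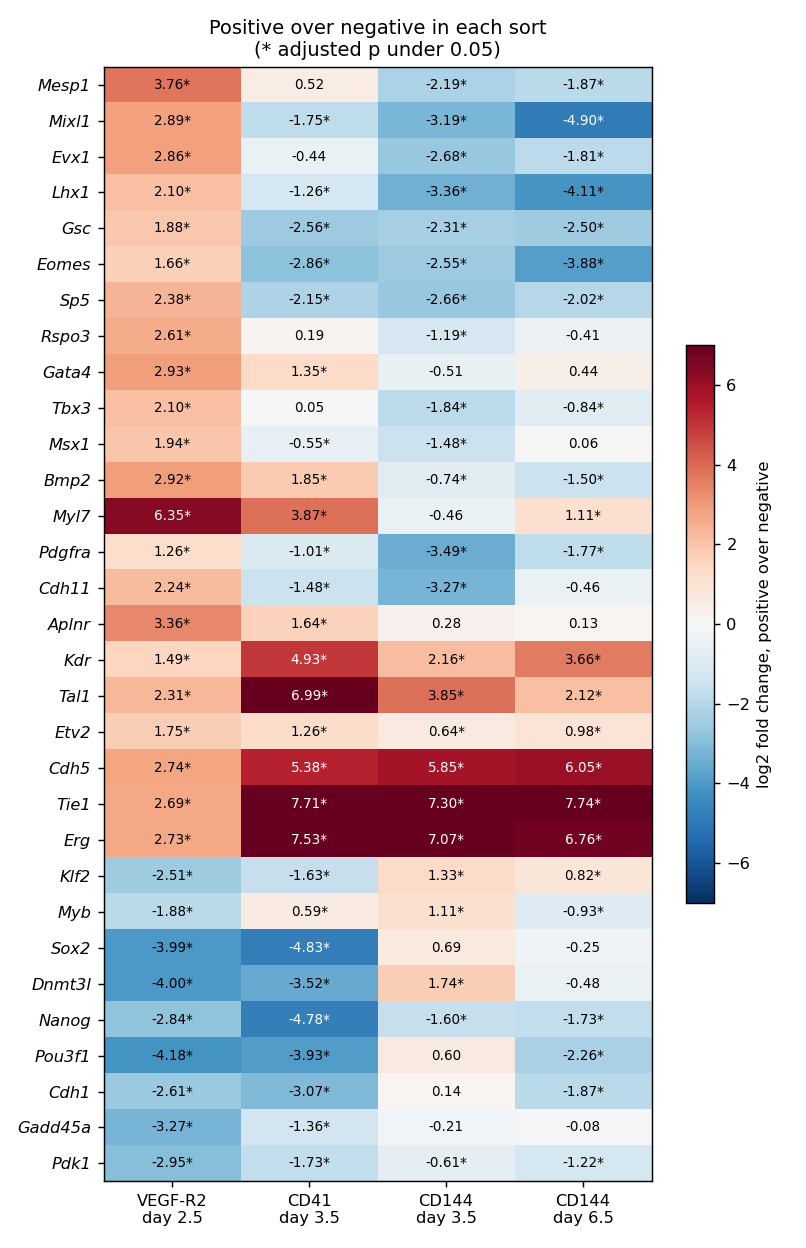
Log2 fold change of positive over negative cells for 31 genes in each of the 4 sorts, 2 arrays per population, red for higher and blue for lower, with an asterisk where the adjusted p was under 0.05. Mixl1, Lhx1, Gsc, Eomes and Sp5 were higher at day 2.5 and lower in the positive cells of the 3 other sorts, whereas Tal1, Cdh5, Tie1 and Erg were higher in all 4.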

How the data were processed

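RNA of 8 sorted populations was measured on 16 Affymetrix mouse arrays, 2 per population. The authors deposited MAS5 signal intensities for 45101 probe sets on a linear scale, with each array scaled, and the version of MAS5 is not given in the sources used here. The gene lists of the study came from dChip values, which were not used. Here 64 control probe sets were left out, and an offset of 6.03, the 10th percentile of all values, was put on each signal. The log2 values were fitted by limma 3.58.1 in R 4.3.3 with 1 mean per population over all 16 arrays and a trended prior. The fit was checked on simulated data in which all arrays had the same spread. Duplicates of positive arrays correlated less than those of negative arrays, so the check cannot show how the p-values hold under unequal spread. P-values measure the spread between duplicate experiments of 1 cell line. Signals carry no counts, so precision is limited by the number of arrays. Of the probe sets tested, 34945 had 1 symbol, 932 several and 9160 none, and a gene was represented by its brightest probe set. Other offsets, floors, normalizations, filters, priors, a replicate block and leaving out each array were tried.

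The comparison and its 26 gene lists were chosen with earlier results of these data known. Of 520 list genes, 503 were analysed here. Named were Kdr, Mixl1, Lhx1, Evx1 and Gsc, the 12 largest called changes each way, up to 5 called genes per list and direction, list members that were not called or whose probe sets disagreed, and the markers of other cells. Tal1, Etv2, Lmo2, Gata2, Lyl1, Tek, Egfl7, Nanog, Zfp42, Gata6, Msx1, Foxh1, Pdgfra, Cdh2, Snai1, Hoxb1, Smad1 and Id1 were chosen after their values were seen. Promoter sequences came from RefSeq, and figures were drawn with matplotlib 3.10.9 in Python 3.11.15.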

Additional observations from a re-analysis of the deposited data

Results flagged for a closer look

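The day 2.5 difference between VEGF-R2 positive and negative cells was listed here where a test of the difference itself separated it from that of another sort, which was the case for 2128 probe sets against the CD41 sort, 2389 against the CD144 sort of day 3.5 and 2181 against that of day 6.5. Among the genes named, 40 were separated from all 3 other sorts at an adjusted p under 0.05 in limma, and their log2 fold changes at day 2.5 are given below.

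In 28 of these 40 the change at day 2.5 was above 0 and higher than in each other sort. Streak and endoderm genes were Mesp1 (3.76), Mixl1 (2.89), Evx1 (2.86), Lhx1 (2.10), Cer1 (1.90), Gsc (1.88), Eomes (1.66) and Fgf8 (1.27). Mesoderm and heart genes were Myl7 (6.35), Gata4 (2.93), Prdm6 (2.44), Tbx3 (2.10), Msx1 (1.94), Gata6 (1.74) and Pdgfra (1.26). Signalling genes were Bmp2 (2.92), Cyp26a1 (2.62), Rspo3 (2.61), Sp5 (2.38), Dkk1 (1.93) and Smad1 (1.31). Surface, matrix and other genes were Aplnr (3.36), Cdh11 (2.24), Hoxb1 (2.23), Cxcr4 (2.09), Egln3 (1.48), Vcan (1.23) and Cdh2 (0.82).

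In 5 the change was above 0 and smaller than in each other sort, with Cdh5 (2.74), Erg (2.73), Tie1 (2.69), Lyl1 (2.16) and Plxnd1 (0.93). In 7 the change was below 0 and lower than in each other sort, with Mga (-5.83), Etnk1 (-5.31), Gadd45a (-3.27), Pdk1 (-2.95), Klf2 (-2.51), Myb (-1.88) and Col1a2 (-0.91). Of the genes above, Cdh2, Gsc, Col1a2 and Plxnd1 lost their day 2.5 call in 1 or more fits without 1 array.

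The spiked hybridization controls, which enter no comparison of genes, were listed because their geometric means, 6481 and 7937 on the VEGF-R2 positive arrays, lay above those of the VEGF-R2 negative arrays, 2134 and 2298. Groups of 2 arrays are too small for a test of single outlying arrays.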

How the results depend on the processing

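The day 2.5 count of 11217 probe sets was 6844 at an adjusted p under 0.01 and between 6451 and 9423 when 1 of its 4 arrays was left out. The 3809 probe sets past the 2-fold interval were 2100 with an offset of 50, 6694 when a 3-fold change was asked with no interval, and 2833 to 4143 with 1 array left out. With a robust prior and no trend, the differences from the CD41 sort, the CD144 sort of day 3.5 and that of day 6.5 numbered 973, 1219 and 941, in place of 2128, 2389 and 2181, and with 1 array left out they ranged from 1077 to 2956, 1255 to 2139 and 964 to 2314. Median centring moved the share of more positive calls against the CD144 sort of day 3.5 to 52.8% (952 and 851), from 41.5%. The causes were not tested.

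The deviations of same-numbered positive and negative arrays had a correlation of -0.003. This value cannot show whether arrays of the same number came from the same experiment. With the replicate number as a block the counts were 11364 for day 2.5, 12676 from its 4 arrays alone, 3848 past the interval, and 2177, 2471 and 2271 for the differences from the other sorts. Of 202 named genes and probe sets, 150 kept their call in each of up to 15 refits (other scalings, offsets, floors, filters, priors, weights, blocks and arrays left out), 52 lost it in 1 or more, and 0 changed sign. Apart from these refits, 173 of the 202 had an adjusted p under 0.01, and 72 are absent when probe sets called the same way in all 3 other sorts are left out. Most of the 202 were chosen because they were called or after their values were seen, so their counts do not describe all probe sets. Of the 11217 probe sets called, 9428 stayed called the same way with quantile normalization and 8129 with the robust prior. Fewer stayed called without either VEGF-R2 negative array. With 2 arrays per population, a call lost in a fit without 1 array also rests on fewer arrays. Signals near the 25th percentile of all values, 23.4, carry folds that depend on the offset.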
